A study of Mus musculus with 686 samples.

Results

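Small RNA libraries of the pancreas were compared with those of the other 12 tissues in mice kept on the ground. The series holds 686 libraries of 13 tissues, of which 234 came from ground controls collected by Live Animal Return (LAR), and 18 of these 234 were pancreas. They were chosen by their labels alone, as pancreas libraries of the LAR extraction from the Habitat Ground Control (HGC) or the Vivarium Ground Control (VGC), and no measured value entered the choice. All mice were female BALB/cAnNTac. The HGC mice lived in crowded flight hardware with air, warmth and humidity set to those recorded in orbit, and gave 8 pancreas libraries, 5 from mice of 3 months and 3 from mice of 8 months. The VGC mice lived in ordinary cages and gave 10 pancreas libraries, 5 of each age. Both groups were anesthetized, bled and dissected alike, and their tissues were frozen soon after. Flight mice (FL) and mice of the other extraction (TERM), whose carcasses were frozen whole and thawed for dissection, were not part of the comparison. The other tissues gave 20 libraries each of brown adipose tissue (BAT), diaphragm, gonadal adipose tissue (GAT), lung, subcutaneous adipose tissue (SCAT) and thymus, 19 each of kidney, liver and mesenteric adipose tissue (MAT), 16 of heart, 15 of spleen and 8 of brain. The brain libraries all came from mice of 3 months, so contrasts of pancreas with brain also differ in age. Libraries of 1 tissue came from separate mice, while tissues of the same mouse shared its number.

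The pancreas is made mostly of acinar cells, which secrete digestive enzymes through a branching duct, with islets of hormone-secreting cells between them. A microRNA (miRNA) is a short RNA that guides the silencing of messenger RNAs, chiefly by pairing of its seed near the 5′ end. The miRNAs miR-216a, miR-216b and miR-217 are known as acinar miRNAs of this organ, and miR-375 as an islet miRNA that restrains insulin release. Small RNA libraries also take up pieces of longer RNAs, namely transfer (tRNA), ribosomal (rRNA), small nuclear (snRNA), small nucleolar (snoRNA) and long non-coding RNA (lncRNA), and reads assigned to piwi-interacting RNA (piRNA).

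The mature sequences of the miRNAs on which the results below turn are shown first, from RefSeq with the assembly GRCm38.p6, 5′ to 3′, with the seed (bases 2 to 8) in capitals. The acinar miRNAs miR-216a-5p, miR-216b-5p and miR-217-5p each have a seed of their own. No other of the 1679 mature miRNAs in the table carried any of these seeds.
mmu-miR-216a-5p: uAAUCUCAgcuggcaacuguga
mmu-miR-216b-5p: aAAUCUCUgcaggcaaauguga
mmu-miR-217-5p: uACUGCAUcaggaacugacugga
The next set holds further abundant miRNAs of pancreas, and 6 of the 8 fall into pairs by seed, with miR-148a-3p and miR-152-3p sharing one, miR-200b-3p and miR-200c-3p another and miR-29a-3p and miR-29c-3p a further one.
mmu-miR-148a-3p: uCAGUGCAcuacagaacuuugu
mmu-miR-152-3p: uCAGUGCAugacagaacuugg
mmu-miR-200b-3p: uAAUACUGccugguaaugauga
mmu-miR-200c-3p: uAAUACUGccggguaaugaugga
mmu-miR-141-3p: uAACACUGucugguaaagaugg
mmu-miR-29a-3p: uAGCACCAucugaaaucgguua
mmu-miR-29c-3p: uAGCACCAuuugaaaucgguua
mmu-miR-802-5p: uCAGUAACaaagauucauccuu
The last set came from precursors that lie within genes of digestive enzymes and their cofactors.
mmu-miR-6969-5p: cAGCAGAGuagggagcaaaaga
mmu-miR-6969-3p: uGUUGUUCccaucucugcag
mmu-miR-7076-3p: uGACUACCacugucuccccag

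On GRCm38.p6 the acinar miRNAs lie together on chromosome 11, with mir-216b at chr11:28746191-28746276, mir-216a at chr11:28757012-28757083 and mir-217 at chr11:28763728-28763835, all on the plus strand. Both mir-216a and mir-217 lie in an intron of the long non-coding gene Gm12082, while no annotated gene overlaps mir-216b on its strand. The precursor of miR-6969 lies at chr17:28558441-28558501 on the minus strand, in an intron of Clps, which encodes colipase, a cofactor of pancreatic lipase. The precursor of miR-7076 lies at chr8:111689601-111689674 on the minus strand, in an intron of Ctrb1, which encodes chymotrypsinogen B1, a precursor of a digestive protease. The counts themselves were made on GRCm39, and no position was converted between the builds.

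Some libraries stood apart. Over 841 miRNAs, 189 of the 234 libraries had a profile closest to the median of their own tissue and 45 had one closest to another. Of the 18 pancreas libraries 16 were closest to pancreas, with correlations of 0.767 to 0.907 to its median, HGC 14 was closest to brain (0.333, against 0.258 to pancreas) and VGC 14 to MAT (0.576, against 0.520). HGC 16 was closest to pancreas, but 65.4% of its counts lay on tRNAs. Outside pancreas, the library labelled diaphragm HGC 2 was closest to pancreas (0.9001). Earlier work on these data had picked 11 of the 44 library pools for mixed-up tissues from the miRNA profiles, among them those of HGC 14, of diaphragm HGC 2 and of pancreas HGC 2, whose own profile was closest to pancreas (0.903). Results are given with all libraries and again without these pools, which leaves 16 pancreas libraries of 184, and the pools chosen from the miRNA profile give no independent support to a miRNA result.

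Counts were as deposited. Summed over the 7 classes, the pancreas libraries held 16.6 to 78.8 M counts with a median of 34.8 M, and on miRNAs 0.431 to 2.88 M with a median of 0.843 M. The mean miRNA count per pancreas library, 0.978 M, was below that of every other tissue, where it ran from 2.13 M in GAT to 7.66 M in lung. A miRNA level in pancreas therefore rests on fewer counts than elsewhere.

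The pancreas put few of its counts on miRNAs and many on rRNA. The miRNA share was 1.36% in the lowest library, 2.32% at the median and 7.00% in the highest (mean 2.71% ± 1.39, SD, n = 18), the lowest mean of the 13 tissues. The highest value was that of HGC 14, and the next was VGC 14 with 4.48%. Mean shares in the other tissues were 2.94% ± 2.96 in GAT, 3.84% ± 1.99 in SCAT, 4.13% ± 1.68 in MAT, 8.73% ± 2.65 in BAT, 9.04% in thymus, 9.18% in spleen, 9.63% in diaphragm, 11.0% in brain, 11.7% in kidney, 12.7% in liver, and 15.8% in both heart and lung. The white adipose tissues were thus the neighbours of pancreas at the low end, and their libraries overlapped with it.

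By a 2-sided permutation test of the means, 10 of the 12 tissues had a higher miRNA share than pancreas after Benjamini-Hochberg adjustment over 84 tests (12 tissues by 7 classes). The adjusted p was 2.62e-05 in 9 of them, which follows from the smallest p that 100000 permutations can give (exact test for brain, n = 8), and 0.0154 in MAT. The difference was not past the threshold in SCAT (1.12 percentage points higher than pancreas, adjusted p = 0.0620) or in GAT (0.227 points higher, adjusted p = 0.830). GAT shares ran from 0.696% to 13.7%, a range that covered that of pancreas. Without the 11 pools the pancreas mean was 2.43%, the difference of pancreas minus SCAT was -1.502 points (adjusted p = 0.000352), and GAT fell to 2.25%, 0.172 points below pancreas (adjusted p = 0.668). GAT and pancreas were therefore not told apart by the miRNA share in either case.

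**Figure D1:**
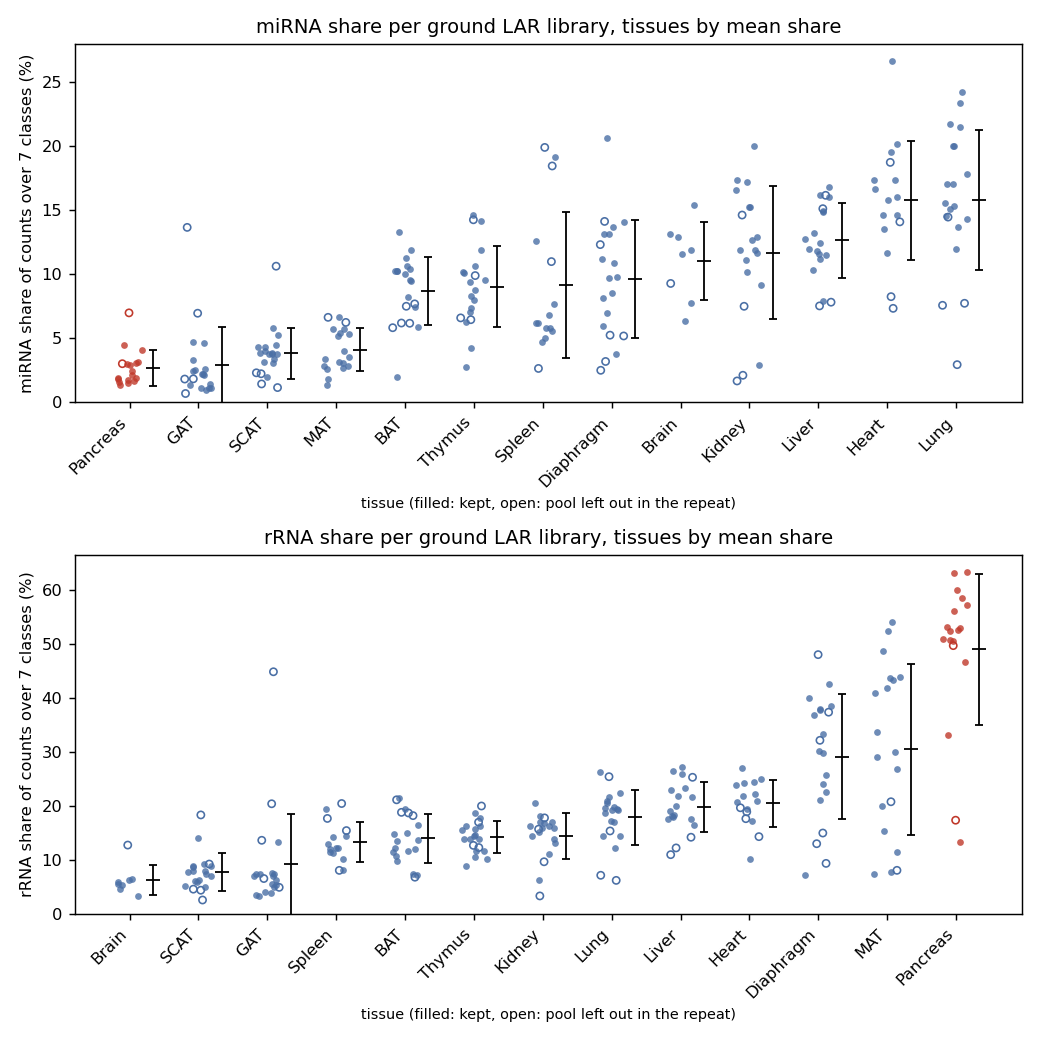
Share of counts on miRNAs (top) and on rRNA (bottom) in percent for each ground LAR library of the 13 tissues, with bars for mean ± SD, pancreas in red and libraries of the 11 left-out pools as open circles. Pancreas and the white adipose tissues hold the lowest miRNA shares, and pancreas has the highest mean rRNA share, 49.0%, with HGC 14, HGC 16 and VGC 14 as its 3 lowest libraries.

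On rRNA lay 13.2% of the counts of the lowest pancreas library, 52.6% at the median and 63.3% in the highest (mean 49.0% ± 14.0, n = 18). The 3 lowest values, 13.2%, 17.3% and 33.1%, belonged to HGC 16, HGC 14 and VGC 14, and the others lay at or above 46.7%. This was the highest mean of the 13 tissues, followed by MAT with 30.5% and diaphragm with 29.1%, and the lowest was brain with 6.28%. All 12 tissues were lower than pancreas in the permutation test, with adjusted p = 0.00168 for MAT, 0.000215 for diaphragm and 2.62e-05 for the other 10. MAT reached up to 54.2%, so the ranges of MAT and pancreas overlapped. Without the pools the pancreas mean was 50.9%.

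The rRNA counts of pancreas fell mainly on features of 5S rRNA, the small RNA of the large ribosomal subunit, and on 1 other feature, in proportions that depend on how identical features are counted. As deposited, a set of 32 features with identical counts in every library, Rn5s and copies of it, held 73.0% ± 2.62 of the rRNA counts, the highest median of the 13 tissues. Each of these features stood at 21385 to 24419 CPM (counts per 1 M counts of the class, median 22710) in pancreas, against a median of 21963 in MAT, the next tissue. CT010467.1, an rRNA feature not of this set, held 9.33% ± 2.86 of the class in pancreas (41849, 100536 and 137015 CPM for the lowest, median and highest library), below its median of 131769 CPM in brain. With identical features counted once the set of 32 became 1 feature with 10.9% ± 1.91 of the class, again the highest median of the 13 tissues, and CT010467.1 held 42.9% ± 9.22. All features named as 5S genes, a set by name that need not hold all of the 32, then held 54.2% ± 8.82. As deposited they held 73.9% ± 2.37. These were the ninth and eighth highest medians of the 13 tissues.

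The same read was listed more than once in several classes, which weighs on the shares. Of 408 tRNA features 224 were distinct over the libraries, and of 356 rRNA features 302. Counting identical features once left 19.3% of the tRNA counts, 25.1% of the rRNA counts, 48.6% of the snRNA counts, 82.6% of the snoRNA counts and 99.96% of the miRNA counts. The miRNA share of pancreas then was 3.18%, 4.92% and 17.4% in the lowest, median and highest library (mean 5.94% ± 3.42), again the lowest of the 13, and tissue means reached 25.4% in lung. GAT (7.67%) was the only tissue not told apart from it (adjusted p = 0.243), while MAT (9.48%) and SCAT (10.5%) were higher (adjusted p = 0.0123 and 0.00105). The rRNA share fell to 22.14% ± 6.12 and was still above all 12 tissues, with MAT at 15.7% (adjusted p = 0.00962) and diaphragm at 14.9% (adjusted p = 0.00199). These counts with identical features merged were chosen after the data were seen.

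**Figure D2:**
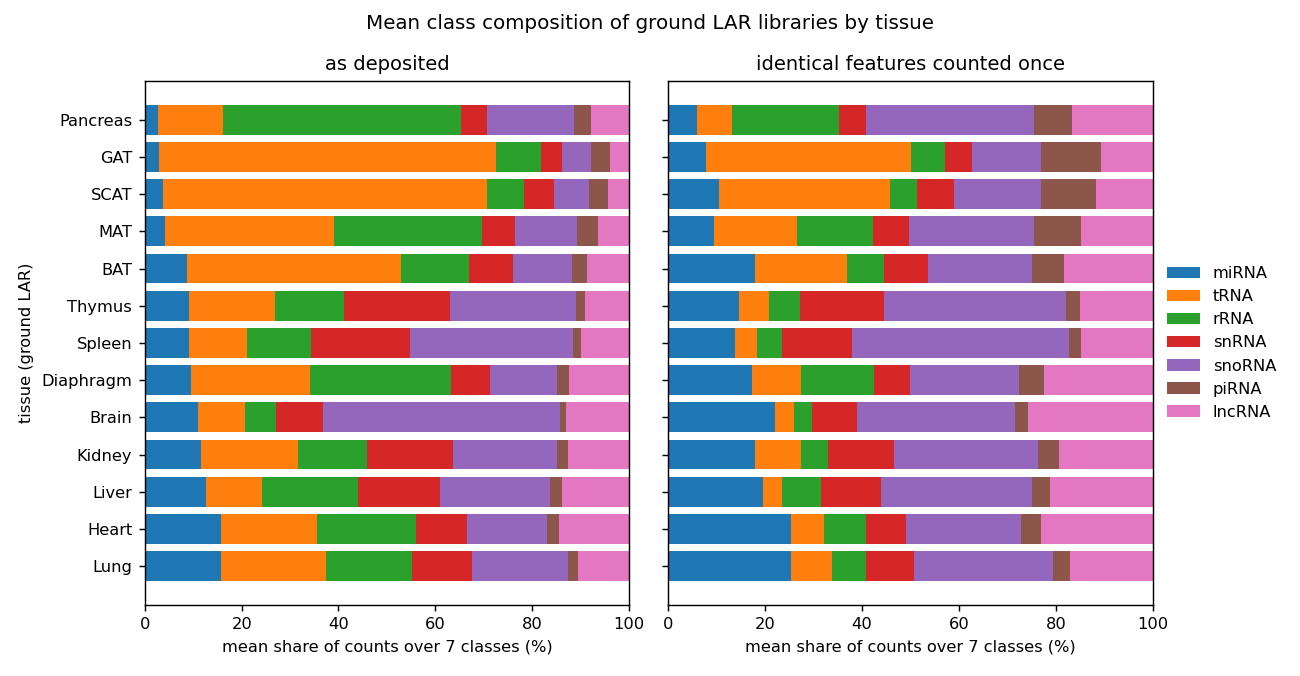
Mean share of counts of each of the 7 RNA classes per tissue, in percent, as deposited (left) and with identical features counted once (right), for ground LAR libraries. In pancreas rRNA takes a mean of 49.0% as deposited and 22.14% counted once, and miRNAs 2.71% and 5.94%.

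The share of miRNAs among the counts outside tRNA and rRNA was also lower in pancreas than in all 12 tissues, by 4.68 points for MAT (adjusted p = 0.00855), 5.00 points for GAT (0.00165) and 8.21 points for SCAT (3.43e-05). On this base the SCAT and GAT differences passed the threshold that they missed on all counts. Pancreas libraries were on 7 of the 8 plates, and within each of these plates their mean miRNA share was below that of the other libraries, by 3.39 to 8.46 points, and their rRNA share above it, by 16.8 to 37.5 points.

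tRNA took 3.99%, 7.13% and 65.4% of the counts in the lowest, median and highest pancreas library (mean 13.5% ± 16.9), the highest 2 being HGC 16 and HGC 14 (52.5%), with the next at 13.8%. The 4 adipose tissues were higher, with 35.0% in MAT, 44.2% in BAT, 66.8% in SCAT and 69.7% in GAT, and none of the other 8 passed the test. Either on the log2 scale or without HGC 14, HGC 16 and VGC 14, 8 tissues rather than 4 were higher. As deposited, the tRNA counts of pancreas were mostly pieces of tRNA-Glu (33.5% ± 7.58 of the class, the lowest median of the 13 tissues), tRNA-Gly (27.0% ± 5.09, the highest) and tRNA-Val (21.6% ± 3.74). With identical features counted once, tRNA-Gly led with 31.4% ± 5.37, followed by tRNA-Val with 27.9% ± 4.42 and tRNA-Glu with 18.2% ± 5.40, and tRNA-Gly and tRNA-Glu again had the highest and the lowest median of the 13 tissues. The identical features tRNA-Glu-CTC-1-1 to tRNA-Glu-CTC-1-5 led the class with 25339, 34245 and 63476 CPM in the lowest, median and highest library, below the median of every other tissue.

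snRNA, the RNA of the spliceosome, took 2.90%, 4.78% and 20.0% (mean 5.45% ± 3.79), with VGC 14 as the only library above 6.85%. The share was higher in 9 tissues, up to 21.8% in thymus, and GAT, MAT and SCAT were not told apart from pancreas. snoRNA, which guides the modification of rRNA, took 4.69%, 19.0% and 27.9% (mean 18.0% ± 5.95), below brain (49.0%), spleen (33.7%), thymus (26.2%) and liver (22.7%) and above BAT (12.1%), MAT (12.9%), SCAT (7.25%) and GAT (5.94%). The piRNA share was 2.11%, 2.94% and 6.25% (mean 3.55% ± 1.36), above that of 8 tissues and not told apart from the 4 adipose tissues. The lncRNA share was 5.25%, 7.39% and 14.6% (mean 7.80% ± 2.36), below 7 tissues and above GAT (3.88%) and SCAT (4.24%). With identical features counted once, snoRNA took 34.7% of pancreas counts, and was lower in 7 tissues and higher only in spleen (44.8%). The lncRNA share was then higher in 4 tissues, kidney (adjusted p = 0.220, permutation test), lung (0.817) and spleen (0.206) no longer passing, and the piRNA share was higher in GAT (0.00104) and SCAT (0.00564).

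Some of these calls changed with tissues paired by mouse, by an exact permutation test within pairs. Diaphragm then passed for tRNA (higher than pancreas, adjusted p = 0.0256, exact) and snoRNA (lower, 0.0262). No longer passing were snRNA for diaphragm (adjusted p = 0.120, exact), snoRNA for liver (0.0757), piRNA for heart (0.121) and lncRNA for brain (0.0875) and spleen (0.121), with 6 pairs for brain and 8 each for heart and spleen. The calls of miRNA and rRNA shares were the same when paired.

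Neither housing nor age of the mice moved these values past the threshold. Of 20 permutation tests (exact with 8 or 10 libraries a group, 2-sided) of the 7 class shares and the 3 marker miRNAs, between HGC and VGC and between 8 and 3 months, 0 passed, with a lowest adjusted p of 0.748 and a lowest unadjusted p of 0.187. The miRNA share was 2.77% ± 1.82 in HGC (n = 8) and 2.67% ± 1.04 in VGC (n = 10). In mice of 8 months it was 2.30% ± 0.693 (n = 8) and in mice of 3 months 3.04% ± 1.74 (n = 10). These p-values measure the spread between mice.

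Fewer miRNAs were detected in pancreas than elsewhere at full depth. At least 5 counts were reached by 366, 444.5 and 643 miRNAs in the lowest, median and highest library (mean 446 ± 66.1, n = 18), fewer than in all 12 tissues, whose means ran from 536 in GAT to 763 in brain (highest adjusted p 0.00014, for GAT, permutation test). The highest pancreas values were those of HGC 14 (643) and VGC 14 (562), which also had the most miRNA counts. At an equal depth of 0.3 M miRNA counts the expected number was 330 to 385 with a mean of 344.9 ± 14.7, and the order turned. Pancreas then had more detected miRNAs than 8 tissues, down to liver with 274, and fewer only than brain with 400.4 (adjusted p = 1.54e-05, exact permutation test). GAT (335.6, adjusted p = 0.261), MAT (355.6, 0.0541) and thymus (350.3, 0.294) were not told apart from it. Without the pools MAT (358.1) was above pancreas (adjusted p = 0.00402), while SCAT and spleen no longer passed (0.0563 and 0.544).

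**Figure D3:**
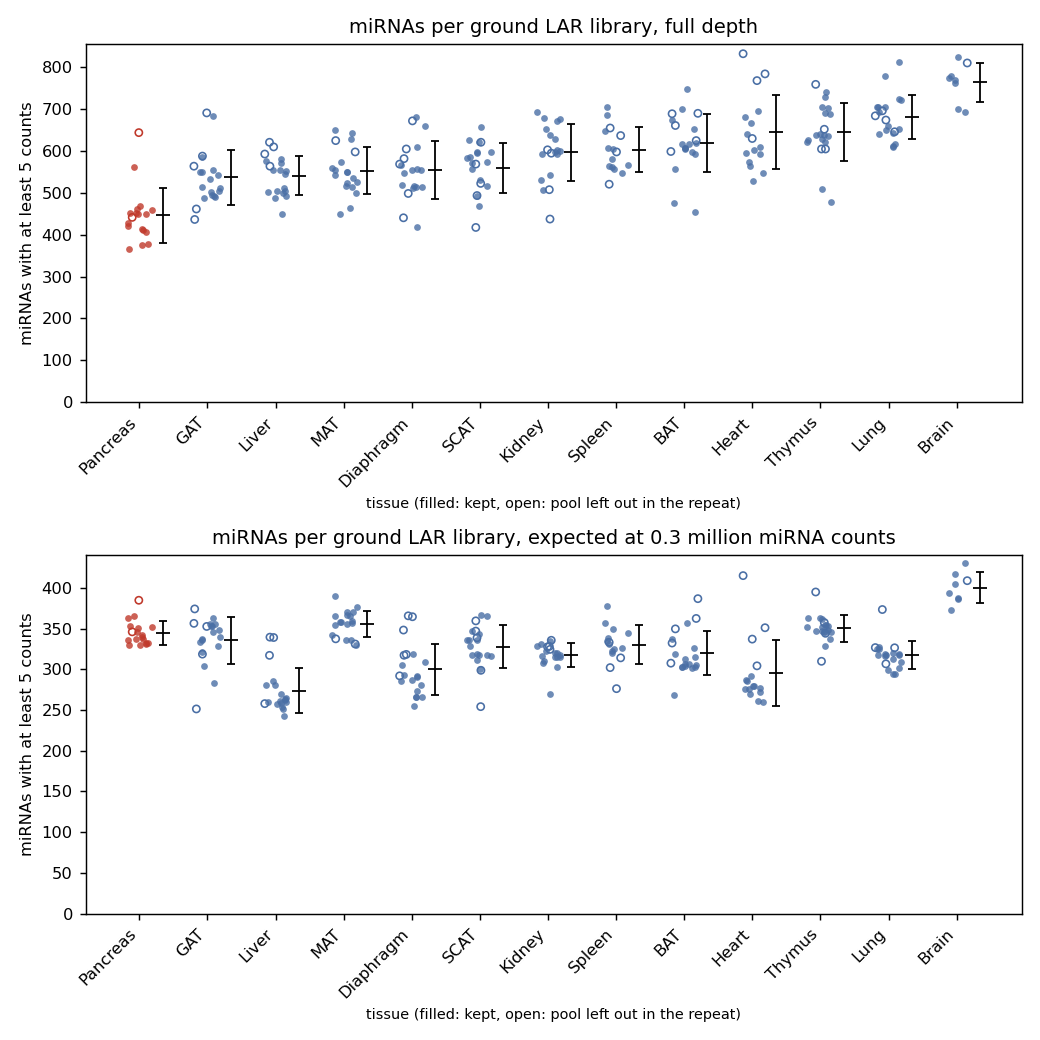
Number of miRNAs with at least 5 counts per ground LAR library at full depth (top) and the number expected at 0.3 M miRNA counts (bottom), by tissue, with bars for mean ± SD and pancreas in red. Pancreas has the lowest mean at full depth, 446, and one of the higher means at equal depth, 344.9.

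The miRNA pool of pancreas was spread over many miRNAs. The 10 most abundant miRNAs of a library took 39.7%, 48.7% and 57.2% of its miRNA counts in the lowest, median and highest library (mean 48.9% ± 3.70). This was less than in 11 tissues, from 54.0% in kidney (adjusted p = 0.00129) to 67.7% in liver, and close to MAT with 50.2% (adjusted p = 0.430). It took 8 to 14 miRNAs to make up 50% of the pancreas counts (mean 10.9), against means of 4.9 in liver to 10.5 in MAT.

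The leading miRNA was miR-375-3p with a median of 78241 CPM of the miRNA class, followed by miR-26a-5p (40607, 66542 and 99156 CPM in the lowest, median and highest library) and the let-7 family. Median levels of that family, which shares the seed GAGGUAG and is abundant in most differentiated tissues, were 57464 CPM for let-7c-5p, 48217 for let-7a-5p, 32306 for let-7g-5p, 31411 for let-7b-5p, 31017 for let-7f-5p and 20899 for let-7d-5p. Of these, none was called higher in pancreas than in any tissue except let-7g-5p, which was called higher than in 4. miR-29a-3p, which represses collagens, stood at 19587, 33429 and 53929 CPM, the highest median of the 13 tissues, and was called higher than in 4 of them. The other miRNAs among the 15 highest were shared with other tissues, where they were more abundant, such as the red cell miRNA miR-451a (26449 CPM, spleen 87043), miR-181a-5p (25081 CPM, thymus 196498) and the adipose miRNA miR-378a-3p (20267 CPM, BAT 211170), or belong to the acinar and epithelial groups below.

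For single miRNAs 1300 were tested by edgeR's quasi-likelihood test with the class total as library size. Those with an adjusted p under 0.05 (Benjamini-Hochberg) and a log2 fold change beyond 1 were called. Against liver 325 miRNAs (25.0%) were called higher in pancreas and 75 (5.77%) lower, against lung 290 (22.3%) and 187 (14.4%), against diaphragm 277 (21.3%) and 140 (10.8%), and against brain 240 (18.5%) and 407 (31.3%). Against kidney the calls were 231 (17.8%) higher and 169 (13.0%) lower, against heart 228 (17.5%) and 120 (9.23%), against spleen 209 (16.1%) and 244 (18.8%), and against SCAT 197 (15.2%) and 219 (16.8%). Against thymus they were 188 (14.5%) and 258 (19.8%), against BAT 160 (12.3%) and 127 (9.77%), against GAT 150 (11.5%) and 250 (19.2%), and against MAT only 25 (1.92%) and 82 (6.31%). MAT was thus the tissue with the fewest calls and brain that with the most lower calls. Without the 11 pools the fewest higher calls against a tissue were 48 of 1277 tested. Of all calls 52.5% were higher in pancreas, and 37.4% with TMM factors. The median log2 fold change over all tested miRNAs ran from -0.39 to 0.40 over the 12 contrasts, and TMM factors moved a contrast's median by up to 0.56 and DESeq2's size factors by up to 0.62.

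The label of the tissue was checked against its 3 markers. miR-216a-5p stood at 477, 13420 and 19097 CPM in the lowest, median and highest pancreas library, miR-217-5p at 894, 13665 and 39575 CPM and miR-375-3p at 3580, 78241 and 170610 CPM. All 18 libraries held all 3, with HGC 14 lowest in each, and for both acinar markers VGC 14 was the second lowest, at 2215 and 2114 CPM. Medians were 1.08 to 7.48 CPM for miR-216a-5p and 0.777 to 6.67 CPM for miR-217-5p in the 11 tissues other than MAT, and 28.3 CPM (heart) to 984 CPM (lung) for miR-375-3p. In these 11 contrasts all 3 were called higher in pancreas, by log2 fold changes of 3.06 (diaphragm) to 10.50 (liver) for miR-216a-5p, 3.35 to 11.55 for miR-217-5p and 3.18 to 8.96 (SCAT) for miR-375-3p. Diaphragm held the library HGC 2 with 14450, 20100 and 110300 CPM of the 3 markers.

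MAT was different. Its medians were 8135 CPM of miR-216a-5p, 5937 CPM of miR-217-5p and 28614 CPM of miR-375-3p, with ranges of 1.91 to 21417, 0.953 to 12451 and 113 to 77527 CPM. For each marker 14 of the 19 MAT libraries lay at or above the lowest pancreas library, and 4 reached the pancreas median of miR-216a-5p, while 0 did so for miR-217-5p or miR-375-3p. Correlations of MAT libraries to the pancreas median reached 0.822. The log2 fold changes against MAT were 0.72 (SE 1.03) for miR-216a-5p, 1.62 (1.08) for miR-217-5p and 1.44 (0.83) for miR-375-3p, with adjusted p of 0.736, 0.384 and 0.308. By the rank-sum test miR-217-5p and miR-375-3p were called higher in pancreas than in all 12 tissues. The part of pancreatic tissue in the MAT libraries was not tested.

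**Figure D4:**
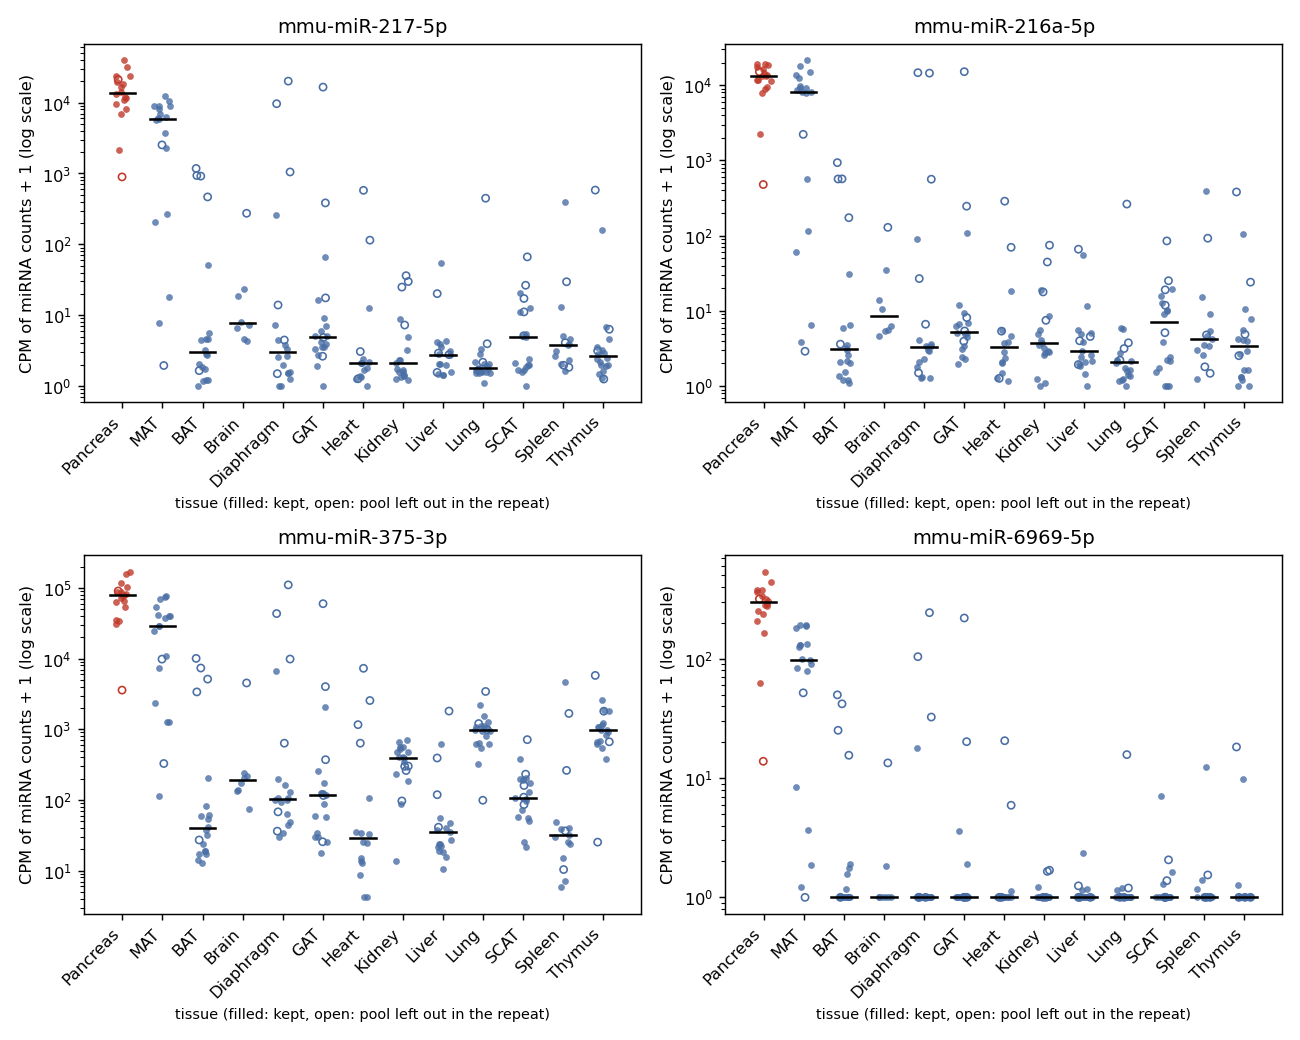
Level of miR-217-5p, miR-216a-5p, miR-375-3p and miR-6969-5p in each ground LAR library by tissue, in CPM of the miRNA class plus 1 on a log axis, with a line at each median, pancreas in red and left-out pools as open circles. Pancreas and MAT hold the high values, apart from single libraries elsewhere such as diaphragm HGC 2.

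All 8 listed acinar miRNAs were called higher in pancreas than in each of the 11 tissues other than MAT, and 1 of 8, miR-148a-5p, against MAT. Without the pools 2 were called against MAT, and by the rank-sum test 5. Their summed level was 2619, 61289 and 93440 CPM in the lowest, median and highest pancreas library, against medians of 33447 CPM in MAT and 2177 CPM in liver, the next tissue. miR-216b-5p stood at 238, 5160 and 11256 CPM (MAT median 1694), and the minor arms at medians of 162 CPM for miR-216a-3p, 602 CPM for miR-217-3p and 86.5 CPM for miR-216b-3p. Both arms of miR-216c were at 0 in all 18 libraries. miR-148a-3p, which is also abundant in liver, stood at 974, 24649 and 34530 CPM, against a median of 12759 CPM in MAT (log2 fold change 1.05, adjusted p = 0.216). miR-152-3p, which shares its seed, stood at 271, 3084 and 6824 CPM.

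The islet group was led by miR-375-3p, with the other members far below it. Of 7 listed members 6 were tested, and all 6 were called higher in pancreas than in 9 tissues, 5 than in SCAT, 2 than in brain and 1 than in MAT (2 without the pools and 3 by the rank-sum test). The summed level was 4372, 84514 and 177388 CPM, against medians of 35334 CPM in MAT and 4993 CPM in brain. miR-7a-5p, which is high in endocrine and neuronal cells, stood at 598, 5784 and 10651 CPM, about level with MAT (median 5704). Brain had the higher median of miR-7b-5p (996 against 629 CPM), miR-153-3p (609 against 319) and miR-7a-2-3p (56.8 against 24.2), and SCAT that of miR-184-3p (147 against 134 CPM). The minor arm miR-375-5p, at a median of 0.423 CPM, did not pass the filter on low counts, and with no filter it was called higher than in each of the 12 tissues (smallest log2 fold change 2.70, against MAT, highest adjusted p 0.00114 by edgeR).

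The epithelial group, whose miR-200 members keep cells in the epithelial state, was called higher in pancreas in all 8 members against diaphragm, GAT, heart, liver, SCAT and spleen. It was called higher in 7 members against lung and thymus, 6 against BAT and kidney, 5 against brain and 0 against MAT by edgeR, where 5 passed at an unadjusted p under 0.05. Against MAT the count changed with the method, with 5 members called without the pools and with DESeq2 (miR-182-5p, miR-183-5p, miR-96-5p, miR-200b-3p and miR-200c-3p), 6 by the rank-sum test, which added miR-141-3p, and 2 without HGC 14, HGC 16 and VGC 14. The summed level was 14329, 91749 and 142572 CPM, against medians of 38648 CPM in MAT and 31293 CPM in kidney. miR-200c-3p stood at 4555, 42295 and 91855 CPM (MAT median 18734) and miR-200b-3p, with the same seed, at 2812, 25319 and 37042 CPM (MAT median 9641). miR-141-3p, whose seed differs from theirs, stood at 351, 7059 and 13700 CPM. miR-429-3p was the exception of the group, since its median of 7791 CPM was below that of kidney (12625 CPM). miR-182-5p, miR-183-5p and miR-96-5p, a cluster known from sensory epithelia, had medians of 3138, 1229 and 600 CPM.

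The list of hepatic and enteric epithelium was called higher in all 5 members against brain and lung, in 4 against SCAT and in 2 or 3 against the other tissues outside MAT. miR-802-5p, known from liver, gut and pancreas, stood at 407, 14512 and 22027 CPM (mmu-miR-802-5p medians of 7278 in MAT and 1066 in liver), and both its arms were called higher than in 11 tissues. miR-192-5p, the leading member in liver (83045 CPM there), had a median of 2198 CPM in pancreas. The list's sum was 2908, 20553 and 29005 CPM in pancreas, below liver and kidney. Of its 5 members 2 were called lower and 2 higher against liver, and 2 lower and 3 higher against kidney. Against MAT 1 was lower and 0 higher by edgeR, 0 also at an unadjusted p under 0.05, by DESeq2 and by the rank-sum test.

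Called higher in pancreas than in each of the 12 tissues were 10 miRNAs (0.769% of those tested). Of these 8 had a pancreas median above that of every other tissue. miR-200b-5p stood at 14.2, 81.1 and 784 CPM in the lowest, median and highest library (MAT median 32.4), and its smallest log2 fold change, against MAT, was 2.36 (SE 0.64, adjusted p = 0.00602). miR-148a-5p stood at 1.73, 25.9 and 59.2 CPM (MAT 7.55, log2 fold change 1.68, SE 0.51, adjusted p = 0.0169) and miR-152-5p at 6.24, 76.7 and 208 CPM (MAT 32.2, 1.14, SE 0.36, adjusted p = 0.0218). These are minor arms of precursors whose major arms were among the abundant miRNAs of pancreas. With plate as a term the call of miR-152-5p against each of the 12 tissues ended. The overlap of single libraries was wide, since the lowest pancreas values of each lay below the MAT median.

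The more abundant of the other calls was miR-345-5p, with 109, 553 and 2108 CPM (MAT median 299.5, log2 fold change 1.16, SE 0.27, adjusted p = 0.000766). miR-582-3p stood at 16.5, 68.1 and 142 CPM (MAT 30.8, 1.30, SE 0.41, adjusted p = 0.0205) and miR-676-5p at 11.5, 51.7 and 86.2 CPM (BAT 23.8, 1.03, SE 0.26, adjusted p = 0.000801). The call of miR-345-5p against each of the 12 tissues ended with TMM factors, with DESeq2 and by the rank-sum test, and that of miR-676-5p with TMM factors, with DESeq2, without the pools and with plate as a term. miR-3105-3p (0, 3.20 and 14.4 CPM) and miR-7076-3p (0, 1.14 and 11.6 CPM), the miRNA within Ctrb1, were near the lower limit of detection. Both calls ended with DESeq2 and by the rank-sum test, that of miR-3105-3p also with TMM factors and that of miR-7076-3p also with tissues paired by mouse and with plate as a term. The calls of miR-12185-5p and miR-7028-5p rested on few libraries, and both ended without HGC 14, HGC 16 and VGC 14, with tissues paired by mouse, with DESeq2 and by the rank-sum test. miR-12185-5p had counts in 3 of 18 libraries, with 66% of its summed CPM in HGC 16, and miR-7028-5p was found in HGC 16 alone at 20.1 CPM.

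With MAT left out, 33 miRNAs (2.54%) were called higher in pancreas than in each of the other 11 tissues. This count was chosen after the data were seen, and was 24 with TMM factors and 21 with DESeq2. The added ones were 6 arms of miR-216a, miR-216b and miR-217, miR-375-3p, miR-148a-3p, miR-152-3p, both arms of miR-802, miR-141 and miR-6969, the 3p arm of miR-200b, both arms of miR-200c, and miR-29c-3p, miR-582-5p, miR-671-5p, miR-676-3p and miR-6546-3p. miR-29c-3p stood at 1853, 11244 and 19841 CPM (MAT median 7762). miR-6969-5p, the miRNA within Clps, stood at 12.8, 298 and 539 CPM, with a median of 96.8 CPM in MAT and of 0 in the other 11 tissues. Its other arm miR-6969-3p stood at 130, 1818 and 3232 CPM (MAT median 662). The log2 fold change of miR-6969-5p against MAT was 1.62 (adjusted p = 0.281), and without the 11 pools it was called in all 12 contrasts (highest adjusted p 0.0159). The count of miRNAs called against all 12 tissues was 16 without the pools, 9 of them shared with the 10 above.

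**Figure D5:**
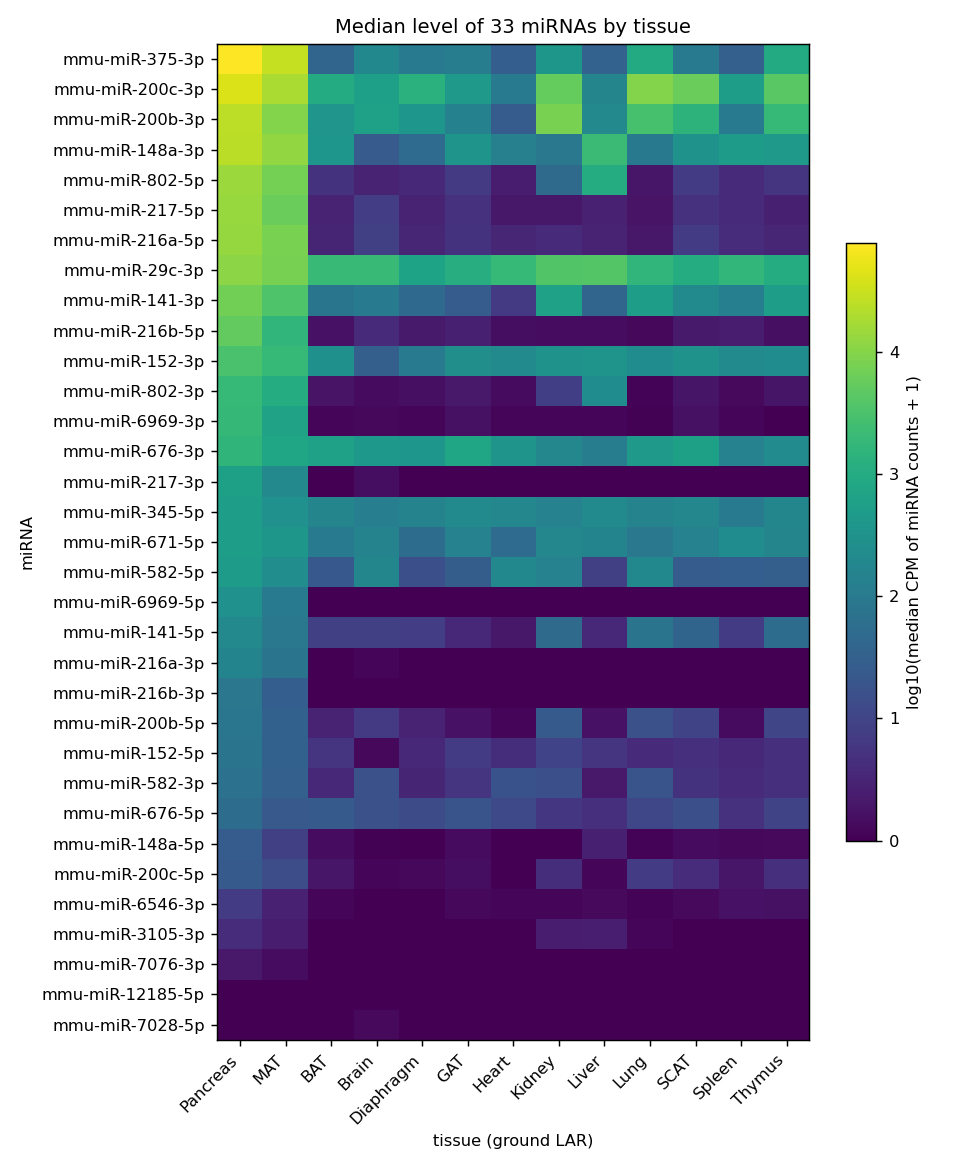
Heat map of the median level of 33 miRNAs (rows) in the 13 tissues (columns) over ground LAR libraries, as log10 of CPM of the miRNA class plus 1. miR-216a-5p is bright (high) in pancreas and MAT and dark in the other 11 tissues, with medians of 13420 and 8135 CPM against 7.48 CPM or less, while mmu-miR-148a-3p is also visible in liver, with a median of 2169 CPM.

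Only miR-7224-3p (0.0769%) was called lower in pancreas than in each of the 12 tissues, and the same count was found with MAT left out. The call ended with tissues paired by mouse, with DESeq2, by the rank-sum test, with plate as a term and with no filter on low counts. miR-7224-3p was at 0 in 15 of 18 pancreas libraries and reached 1.73 CPM, against medians of 0.532 CPM in MAT and 11.8 CPM in brain, with log2 fold changes of -1.60 (MAT) to -5.13 (brain). At these levels and depths a count of 0 allows up to 3 counts.

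Markers of other cell types were ranked among the 13 tissues by the median of their sum, and pancreas was at rank 2 for the liver list, 4 for the brain list, 7 for the red cell list and 9 for the muscle and blood cell lists, with single libraries high. The 7 muscle miRNAs summed to 877, 2232 and 127039 CPM, the highest being HGC 14, and were called higher in pancreas in at most 3 members (liver) and lower in up to 6 (diaphragm and heart). The 4 brain miRNAs summed to 91.7, 374 and 12928 CPM, again with HGC 14 highest, and all 4 were called lower than in brain. The 2 arms of the liver miRNA miR-122 summed to 99.7, 639 and 34805 CPM, the highest being VGC 11, and both were called lower than in liver and GAT and higher than in brain, lung and thymus. In GAT the sum was 113, 392 and 357246 CPM, so that its median was below that of pancreas and its highest library far above. The 6 blood cell miRNAs summed to 3229, 7097 and 43672 CPM and the 3 red cell miRNAs to 13861, 26653 and 69131 CPM, with VGC 14 highest in both. All 6 blood cell and all 3 red cell miRNAs were called lower than in spleen.

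The 4 stromal and smooth muscle miRNAs summed to 14707, 23723 and 66075 CPM, with VGC 14 highest, and were called higher than in brain in all 4 members and lower than in lung, MAT and SCAT in 3. MAT had the highest median of that sum, 83432 CPM. The 2 endothelial miRNAs summed to 5757, 11715 and 33343 CPM, lower than in lung in both. The 3 adipose miRNAs summed to 13879, 21818 and 72038 CPM, with HGC 14 highest and HGC 5 next at 71689 CPM, and were called lower than in BAT, GAT and SCAT in all 3. The 4 miRNAs of kidney and the Hox clusters summed to 390 to 3275 CPM (median 808). They were called lower than in GAT, kidney and MAT in all 4. The 3 ciliated cell miRNAs summed to 27.1 to 580 CPM (median 44.5), lower than in lung and thymus in all 3. No member of a list was at 0 in every pancreas library. In bulk tissue, fewer cells of a type and less RNA per cell cannot be told apart, and the part of these cell types in the results was not tested.

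Among the other classes the rRNA features stood out by the calls against pancreas. By edgeR's test 92 of 284 (32.4%) were called lower in pancreas than in each of the 12 tissues and 0 (0%) higher (96 and 0 at an unadjusted p under 0.05), and 80 of the 92 had their lowest median in pancreas. With MAT left out 128 (45.1%) were called lower and 0 (0%) higher, but with TMM factors 36 of the 284 lower and 47 higher. With TMM factors 20 of the 92 stayed called, so the count depends on the scaling. Of 408 tRNA features edgeR called 0 (0%) in either direction against each of the 12 tissues. At an unadjusted p under 0.05 in each contrast, 1 was higher and 0 lower. Single contrasts held up to 293 of the 408 called higher (SCAT) and 88 called lower (brain). TMM factors gave 1 tRNA and 1 rRNA feature called higher than in each tissue.

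The calls of snRNA, snoRNA and lncRNA higher in pancreas rested on 1 library. Called higher than in each of the 12 tissues were 3 of 903 snRNAs (0.332%), 4 of 1040 snoRNAs (0.385%) and 44 of 5942 lncRNAs (0.740%), among them the snRNA Gm22263, the snoRNA Gm22882 and the lncRNAs Gm6145 and Gm38839. HGC 16 held most of the summed pancreas CPM of each of these, and without HGC 14, HGC 16 and VGC 14 none of the 3, of the 4 or of the 44 was called. Lower than in each were 0 snRNAs (0%) and 0 snoRNAs (0%) by edgeR, with 1 and 0 at an unadjusted p under 0.05 and 0 and 6 with TMM factors, and 11 lncRNAs (0.185%), such as Gm13582 and Gm16337, and 469 lncRNAs without those 3 libraries. Of 1387 piRNAs 11 (0.793%) were called higher and 5 (0.360%) lower, and 7 of the 11 had a pancreas median above that of every tissue. These counts were 23 and 12 with TMM factors, and 9 and 68 without those 3 libraries. With tissues paired by mouse 9 piRNAs and 1 lncRNA were called higher, and 2 piRNAs and 42 lncRNAs lower.

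By level, the leading features of these classes were mostly shared with other tissues. The snRNA Rnu2-10, a U2 gene, and 3 identical features (Gm24950, Gm23971 and Gm23849) stood at 7777, 28055 and 50421 CPM of their class. The leading snoRNA Gm22680 stood at 21693, 56590 and 74591 CPM, against medians of 41385 CPM in MAT and 1571 CPM in brain, and was followed by Gm26224 (30420 CPM), Snord42a (29833 CPM) and Snord80 (28549 CPM). Gm22680 had its highest median in pancreas. The piRNA class was dominated by oocyte_piRNA2795 with 55246, 326874 and 444973 CPM (liver median 283433) and piR-16 with 28633, 91265 and 250997 CPM (liver median 81699), both with their highest median in pancreas. By contrast oocyte_piRNA905, at 11280, 30768 and 164393 CPM, had its lowest median there (SCAT 282061). The leading lncRNA was Snhg1, the host of several snoRNAs, with 21759, 131200 and 296396 CPM (spleen median 153275). Whether reads assigned to piRNA or lncRNA are pieces of other RNAs was not tested.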

How the data were processed

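Small RNA was sequenced from 686 libraries, and the 234 ground LAR libraries were analysed, 18 of them pancreas. The authors mapped reads with miRMaster to GRCm39 and miRBase and deposited counts for 7 classes in separate tables, without normalization. The miRNA values they deposited are estimated counts, since 0.780% carry a fraction, and were rounded for edgeR and DESeq2, while the other 6 classes hold whole counts. A blank was read as no count. Columns were matched to samples by library name, and 0 columns stayed unmatched. Pool and plate came from the study's sample sheet.

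Class shares were compared by 2-sided permutation tests of means (100000 resamples, exact for groups under 10), adjusted by Benjamini-Hochberg over 84 tests. Levels are CPM, counts per 1 M counts of the class. Features with at least 5 counts in 10% of the libraries of a tissue and arm were fitted class by class in edgeR 4.0.16 (limma 3.58.1, R 4.3.3) with the 13 tissues as groups and the class total as library size. The code was tested on simulated data. DESeq2 1.42.0 and rank-sum tests were alternatives. Shares, summaries and figures used Python 3.11.15, numpy 2.4.6, pandas 2.3.3, scipy 1.17.1 and matplotlib 3.10.9. The floor of 3 counts behind a count of 0 has 95% confidence and covers counting error only.

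Same-numbered libraries of an arm come from the same mouse by the labels, so tissues were paired by mouse in an alternative. Deviations from the group means correlated with a median of -0.03 to 0.06 within a mouse, and -0.02 to 0.01 between mice, over 6 (brain) to 18 pairs with pancreas.

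Named were the 3 markers with all arms of their families, the 15 miRNAs of highest pancreas median, and up to 12 called higher and 5 lower than in each tissue. Members of marker lists were also named (acinar, islet, epithelial, hepatic and enteric, liver, muscle, brain, blood cells, red cells, stroma, endothelium, adipose, kidney and Hox, ciliated). In each other class the 5 highest, up to 4 higher and 2 lower were eligible. Other miRNAs named for the comparison with MAT left out were chosen after their values were seen. The tissue, lists and rules were chosen with earlier results of these data known. FL and TERM libraries (114 FL LAR and 338 TERM) enter only the closing section.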

Additional observations from a re-analysis of the deposited data

Results flagged for a closer look

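In 24 groups of 8 HGC or 10 VGC pancreas libraries, 7 held a value far from the others by Dixon's ratio at its 95% limit, where chance gives about 1 in 20. HGC 14 had a miRNA share of 7.00% (others in HGC 1.36% to 3.17%), 643 miRNAs with at least 5 counts (374 to 451) and 477 CPM of miR-216a-5p (11560 to 19097 CPM). VGC 14 had an snRNA share of 20.0% (others in VGC 2.90% to 5.45%) and 562 miRNAs with at least 5 counts (366 to 467). VGC 4 had a piRNA share of 6.25% (2.11% to 4.32%), and VGC 3 an lncRNA share of 14.6% (5.74% to 9.72%). The cause of these values was not tested.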

How the results depend on the processing

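The number of tissues with a higher miRNA share than pancreas was 10, and 9 to 12 under all alternatives run. The difference to GAT turned to 0.172 points above GAT without the 11 pools, 0.490 points with HGC alone and 0.165 on the log2 scale, none past the threshold. Leaving out 1 pancreas library gave 10 or 11 tissues, and 11 without HGC 14, VGC 13 or VGC 14, where SCAT passed (adjusted p = 0.00628, 0.0397 and 0.0341). With tissues paired by mouse (replicate block) 10 tissues were higher, with adjusted p = 0.0188 for MAT and 0.0927 for SCAT. tRNA was higher in 8 tissues rather than 4 on the log2 scale and without HGC 14, HGC 16 and VGC 14. With identical features counted once, with or without the pools, snoRNA was higher in 1 and lower in 7 tissues and piRNA higher in 2, and lncRNA was higher in 4 with all libraries. At equal depth detected miRNAs were higher in 1 tissue and lower in 8.

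The count of miRNAs higher than in each of the 12 tissues, 10, was 16 without the pools (9 of them among the 10), 6 with TMM (6), 18 by rank-sum (5), 9 with DESeq2 (4) and 33 with MAT left out. That of lower miRNAs, 1, was 3 with TMM and without the 3 libraries, and 0 with no filter, DESeq2, rank-sum, plate as a term or the replicate block. The smallest log2 fold change of miR-7028-5p, against brain, turned to -3.65 without the 3 libraries, where no pancreas library held a count, so that it is no measure of size, and to -0.42 by rank-sum. With the replicate block 7 miRNAs were higher, 1 tRNA, 0 snRNAs, 0 snoRNAs, 9 piRNAs and 1 lncRNA, and 93 rRNAs, 2 piRNAs and 42 lncRNAs lower. With TMM 1 tRNA, 1 rRNA and 23 piRNAs were higher, and 20 rRNAs, 6 snoRNAs, 12 piRNAs and 5 lncRNAs lower. Without the 3 libraries 3 tRNAs, 0 snRNAs, 0 snoRNAs and 2 lncRNAs were higher, and 2 snoRNAs, 68 piRNAs and 469 lncRNAs lower. Without the pools 9 piRNAs were lower, and with no filter 4 were higher and 1 lower. With MAT left out 4 tRNAs, 5 snRNAs, 8 snoRNAs and 87 lncRNAs were higher and 36 piRNAs lower. The cause was not tested. Single differences, single miRNAs and calls per tissue were the same in 608 comparisons with an alternative. Another 17 moved, 13 became stronger, 25 weaker and 5 reversed. The same meant the same direction and side of the threshold, or for a count of calls a change within a set ratio. The main counts, such as those of tissues past the threshold, were the same in 198 comparisons and moved in 50. Depth limits low miRNAs most in pancreas, which had the fewest miRNA counts.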

Other observations

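The same tissue was also sequenced in arms that the comparison left out, and these values are given without a test. In 10 pancreas libraries of FL mice from LAR the miRNA share was 1.34%, 2.48% and 6.50% in the lowest, median and highest library, the lowest mean of the 13 tissues of that arm, and the rRNA share of 6.02%, 48.2% and 56.7% had the highest. Counted once, the rRNA share of pancreas (mean 18.7% ± 6.97) was second to diaphragm (19.1% ± 8.07) in FL. Median levels in FL pancreas were 12243 CPM of miR-216a-5p, 13053 CPM of miR-217-5p and 69557 CPM of miR-375-3p, against 3031, 3342 and 18125 CPM in FL MAT. The lowest values in FL pancreas were 25.4, 97.7 and 1461 CPM. The highest reached 11990, 13588 and 90368 CPM in FL liver and 15598, 9899 and 56666 CPM in FL diaphragm, where the medians were low.

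In TERM, where tissues were dissected from thawed carcasses, the marker medians of MAT were far below those of pancreas, with single libraries high. Outside pancreas, MAT had the highest median of miR-217-5p, was below spleen alone for miR-216a-5p, and was below lung, thymus and spleen for miR-375-3p. TERM libraries of FL, HGC and VGC mice were joined here, without regard to age. The 11 TERM pancreas libraries had medians of 23072 CPM of miR-216a-5p (15.8 to 42172 CPM), 13291 CPM of miR-217-5p and 63635 CPM of miR-375-3p. The 29 TERM MAT libraries had medians of 21.8, 29.2 and 477 CPM. Single MAT libraries reached 9923, 5458 and 13359 CPM, and the MAT means of 425, 351 and 1524 CPM were the highest outside pancreas. The highest median outside pancreas in TERM was 30.2 CPM for miR-216a-5p (spleen), 29.2 CPM for miR-217-5p (MAT) and 685 CPM for miR-375-3p (lung). The difference between LAR and TERM in MAT was not tested. Of the 10 miRNAs called higher than in each of the 12 tissues in ground LAR, 8 had their highest median in pancreas in FL and 7 in TERM, and of the 33 with MAT left out, 31 and 30. miR-7224-3p had its lowest median in pancreas in both.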
